A study of Mus musculus with 10 samples.

Results

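The collagen genes were every gene of the table whose symbol is made of Col, a number, the letter a and a second number, which gave 44 of 18901 genes. RNA-sequencing compared mouse fibroblasts with cells reprogrammed from such fibroblasts by retroviruses carrying Oct4, Sox2, Klf4 and c-Myc, to learn whether iPS cells obtained with the guidance protein Netrin-1 resemble those obtained without it. There were 5 lines with 2 libraries each: Oct4-GFP MEF (embryonic fibroblasts with a GFP reporter at Oct4) at passages 2 and 4, and, at passages 5 and 25, mouse pre-iPS cells, mouse control iPS cells and "Netrin-1 derived" iPS clone1 and clone2. All came from a cross of mf1 and 129 mice. MEF grew in DMEM with FCS and iPS cells in KSR+LIF medium. The pre-iPS line is partly reprogrammed: its GFP reporter stays off and its retroviruses stay active. Each line is represented by 1 clone or culture, so its 2 passages are repeat samples of that line and p-values measure the spread between them. The study's methods name gelatin or irradiated MEF as the support for iPS and pre-iPS cells and do not say which was used for these libraries.

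Collagens are matrix proteins whose alpha chains, each from its own gene, wind into a common helix. Fibrillar collagens (types I, II, III, V, XI, XXIV and XXVII) form the fibres of skin, bone, tendon and cartilage and are the main secreted product of fibroblasts. Type IV forms the sheet-like network under epithelia, and types VII, XV and XVIII lie in or beside that membrane. Type VI forms beaded filaments, FACIT collagens sit on the surface of fibres, types VIII and X form short-chain lattices, and transmembrane collagens stay at the cell surface. By class the 44 genes were 11 fibrillar, 9 of the basement membrane and its zone, 6 beaded filament, 9 FACIT, 3 short chain, 4 transmembrane and 2 others (*Col26a1* and *Col28a1*). All 44 passed the filter (a value of 10 or more in 2 or more libraries), *Col10a1* and *Col19a1* through MEF alone and *Col13a1* through the iPS lines alone. Of the 44 genes 33 reached 10 in a library of each of the 5 lines.

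Type IV genes lie in head-to-head pairs, and the promoters of 1 pair and of 2 fibroblast collagens are printed because these genes recur in the results. The sequences are RefSeq windows on GRCm38.p6, from 250 bases before to 50 bases after each start, written 5′ to 3′ on the gene's own strand. *Col4a1* is at chr8:11312777-11313076 on the minus strand and *Col4a2* at chr8:11312555-11312854 on the plus strand, and capitals mark the 78 bases (chr8:11312777-11312854) that both windows hold, each the reverse complement of the other.
Col4a1: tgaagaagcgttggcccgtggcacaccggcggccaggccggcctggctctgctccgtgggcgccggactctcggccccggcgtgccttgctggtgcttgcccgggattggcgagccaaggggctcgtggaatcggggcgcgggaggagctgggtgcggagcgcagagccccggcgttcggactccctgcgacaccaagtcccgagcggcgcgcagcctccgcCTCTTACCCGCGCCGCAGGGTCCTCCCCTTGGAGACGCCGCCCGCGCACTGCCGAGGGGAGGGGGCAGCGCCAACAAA
Col4a2: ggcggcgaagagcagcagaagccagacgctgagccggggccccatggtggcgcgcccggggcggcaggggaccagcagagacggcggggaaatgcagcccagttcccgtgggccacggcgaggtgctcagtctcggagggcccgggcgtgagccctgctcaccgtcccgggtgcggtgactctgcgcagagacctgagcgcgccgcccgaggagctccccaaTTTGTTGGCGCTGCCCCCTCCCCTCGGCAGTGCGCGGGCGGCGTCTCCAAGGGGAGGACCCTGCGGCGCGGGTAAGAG
In the windows of *Col1a2* (chr6:4505368-4505667, plus strand) and *Col3a1* (chr1:45311288-45311587, plus strand) capitals mark CCAAT or TATAAA on either strand.
Col1a2: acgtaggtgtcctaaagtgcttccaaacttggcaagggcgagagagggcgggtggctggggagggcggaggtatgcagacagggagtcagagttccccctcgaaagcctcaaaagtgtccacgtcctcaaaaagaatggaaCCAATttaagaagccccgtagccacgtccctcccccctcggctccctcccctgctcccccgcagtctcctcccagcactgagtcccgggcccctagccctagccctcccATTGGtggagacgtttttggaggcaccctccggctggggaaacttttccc
Col3a1: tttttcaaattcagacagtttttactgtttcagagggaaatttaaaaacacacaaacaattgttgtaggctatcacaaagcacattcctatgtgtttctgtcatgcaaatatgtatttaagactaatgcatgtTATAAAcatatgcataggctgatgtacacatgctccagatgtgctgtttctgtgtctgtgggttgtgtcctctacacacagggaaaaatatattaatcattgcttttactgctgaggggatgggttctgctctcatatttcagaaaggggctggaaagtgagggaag
RefSeq gave windows for 35 of the 44 genes, and a gene counted where any of its windows held the motif. CCAAT occurred in 13 of these genes, 37.1% against 37.4% of all 32851 windows, and TATAAA in 5, 14.3% against 13.6%. The GC box core GGGCGG occurred in 22 genes, 62.9% against 35.7% of all windows. Shares of all windows were taken per window, so gene and window shares were not counted alike, and a gene with several windows counts more easily. Both strands were searched for each motif, and end letters of a GC box core can be shared with a CCAAT. In the GENCODE annotation of the same build the starts of *Col4a1* and *Col4a2* were 21 bases apart, those of *Col4a4* and *Col4a3* 72 bases and those of *Col4a6* and *Col4a5* 1309 bases.

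Values below are the deposited edgeR pseudo-counts, that is, reads brought to a common library size, with the lower passage first. The libraries held 38110410 to 52946856 reads on genes. The labels were checked against markers: all 10 fibroblast markers were higher in MEF, and *Nanog*, a naive pluripotency factor, had 2489 to 7441 in the iPS libraries, against 311 and 349 in the pre-iPS line and 34.5 and 36.9 in the fibroblasts. *Pou5f1*, which encodes Oct4, had 392944 and 415437 in pre-iPS cells against 91002 to 110018 in iPS cells, and the table does not separate the endogenous transcript from the transgene. MEF also carried 4 of 5 macrophage markers above iPS cells, such as *Lyz2* with 6824 and 6951. The female-specific RNA *Xist* had 15713 to 22992 reads in pre-iPS cells and clone2 and 140 to 328 in the control line and clone1.

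**Figure D1:**
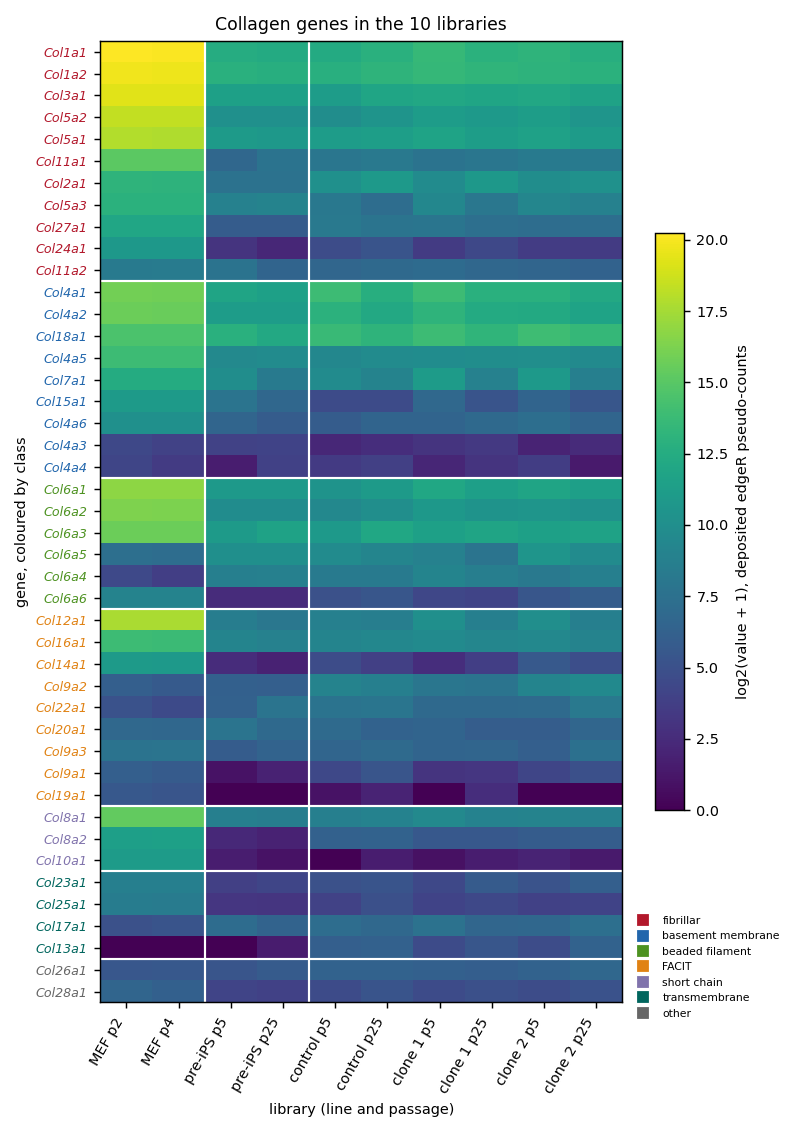
Heat map of log2(value + 1) for the 44 collagen genes (rows, coloured by class) in the 10 libraries (columns, by line and passage). MEF columns are brightest for the fibrillar genes, where *Col1a1* reached 1237803, while *Col6a4* is brighter in every library outside MEF and *Col13a1* and *Col9a2* in the iPS columns.

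Collagen transcripts took up a large part of the fibroblast transcriptome and a small part of the others. They made up 7.41% and 7.11% of reads on genes in MEF, but 0.106% and 0.0966% in the pre-iPS line, 0.159% and 0.153% in the control line, 0.225% and 0.156% in clone1 and 0.179% and 0.14% in clone2. The composition differed as well as the amount. Fibrillar genes gave 83.3% ± 0.217 (SD, n = 2) of collagen reads in MEF, 47.3% ± 0.562 (n = 2) in pre-iPS cells and 40.0% ± 5.48 (n = 6) in iPS cells. Basement membrane genes gave 3.94% ± 0.00893, 31.3% ± 3.75 and 43.0% ± 8.19 in the same order. The lowest fibrillar share and the highest basement membrane share were both in the control line at passage 5, at 29.9% and 57.9%. In each of the 3 iPS lines basement membrane genes gave more reads than fibrillar genes at passage 5 and fewer at passage 25. In such bulk libraries fewer cells of a type and less RNA per cell cannot be told apart.

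**Figure D2:**
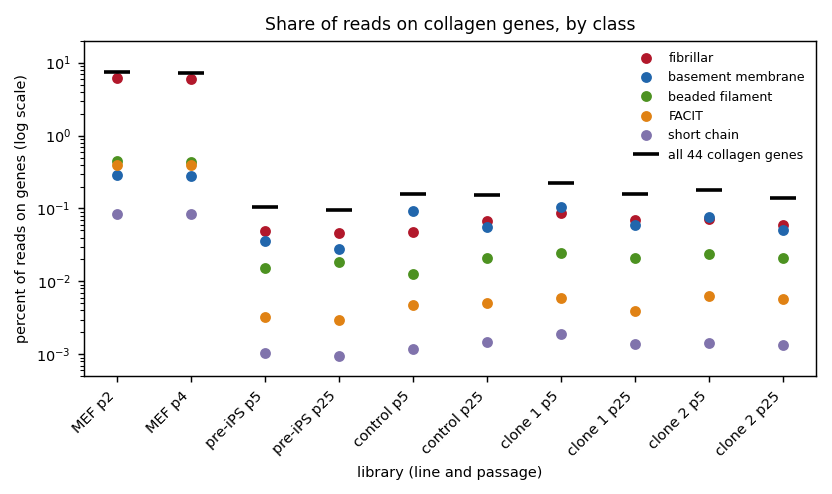
Percent of reads on genes (log scale) that fell on each of 5 collagen classes (points) and on all 44 genes (short lines) in the 10 libraries; the transmembrane and other classes, at most 0.00143%, are not drawn. The fibrillar points of MEF, 6.18% and 5.91%, stand far above those of the other lines, while the basement membrane point lies above the fibrillar point at passage 5 of each of the 3 iPS lines and below it elsewhere.

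Per exon length and library size (RPKM), the order of levels changed between the lines. Places within a line depend on the exon model used, which gave *Col1a2* 12.4 kb and *Col1a1* 6.56 kb. Before correction for length the iPS mean was 8916 for *Col1a2* and 7985 for *Col1a1*, and per length *Col1a2* had 17.6 ± 3.29. In MEF *Col1a1* led with 3243 ± 170 (SD, n = 2), followed by *Col1a2* with 1287 ± 31.5 and *Col3a1* with 1198 ± 21.6, and *Col18a1* was in place 13 with 59.9 ± 1.08. In iPS cells *Col18a1*, whose C-terminal fragment is endostatin, led with 43.4 ± 9.4 (n = 6). *Col4a1* with 30.5 ± 14.2, *Col1a1* with 29.8 ± 8.38 and *Col4a2* with 22.2 ± 8.19 followed, with overlapping spreads over the libraries. Within each iPS library *Col4a1* was above *Col4a2*, by a ratio of 1.22 to 1.58, while *Col1a1* was above them in some libraries and below in others. In pre-iPS cells *Col1a1* with 20.8 ± 1.83 and *Col18a1* with 20.5 ± 5.56 (n = 2) were level. *Col18a1* had the highest mean in each of the 3 iPS lines, but its lead over *Col4a1* lay within the spread of the 2 passages in the control line (39.7 ± 9.05 against 35.3 ± 17.7) and in clone1 (43.0 ± 12.9 against 36.8 ± 17.5). Library by library, *Col18a1* was above *Col4a1* in each iPS library except the control line at passage 5, at 46.1 against 47.8.

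MEF differed from the mean of the 3 iPS lines in most collagen genes, 34 higher and 6 lower, with 4 not called. The 34 include *Col10a1* and *Col19a1*, which passed the filter through MEF alone. A gene was called at an adjusted p under 0.05 (limma over all 17075 genes tested, Benjamini-Hochberg) and a log2 fold change of 1 or more in either direction. Among all tested genes 48.2% were called, 21.6% higher and 26.6% lower. The median log2 fold change of the collagen genes was 4.06, against −0.09 for all genes tested. Both MEF libraries lay above all 6 iPS libraries for 35 collagen genes and below them for 7, where the groups did not overlap for 80.0% of all genes tested. All 11 fibrillar genes, all 3 short chain genes, 7 of 9 basement membrane genes and 4 of 6 beaded filament genes were higher.

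The chains of type I and type III collagen make up the bulk of connective tissue fibres. *Col1a1* had 1237803 and 1145592 in the fibroblasts, 6071 and 5254 in the pre-iPS line, 5264 and 7219 in the control line, 11894 and 7735 in clone1 and 9052 and 6746 in clone2. *Col1a2* had 911984 and 878043 in the fibroblasts, 7425 and 6716 in the pre-iPS line, 6788 and 9068 in the control line, 11638 and 9468 in clone1 and 8607 and 7928 in clone2. No library outside MEF came near the MEF values, and among the others clone1 at passage 5 was highest for both genes. *Col1a1* was 154-fold higher in MEF than in iPS cells (log2 fold change 7.27, SE 0.19, limma adjusted p = 1.12e-08) and *Col1a2* 102-fold (6.67, SE 0.12, adjusted p = 3.11e-09). *Col3a1* had 667718 and 648762 in the fibroblasts, 2977 and 2956 in the pre-iPS line, 2388 and 3915 in the control line, 4435 and 3894 in clone1 and 4620 and 3154 in clone2. It was 180-fold higher in MEF (7.50, SE 0.19, adjusted p = 1.03e-08).

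Type V collagen is the minor partner that starts type I fibres. *Col5a1* had 241707 and 231245 in the fibroblasts, 2088 and 1731 in the pre-iPS line, 2364 and 2636 in the control line, 3502 and 2446 in clone1 and 2985 and 2261 in clone2. *Col5a2* had 348073 and 344046 in the fibroblasts, 1151 and 1133 in the pre-iPS line, 973 and 1457 in the control line, 2353 and 1849 in clone1 and 2396 and 1541 in clone2. The groups were far apart for both, by 6.47 on the log2 scale (SE 0.15, limma adjusted p = 7.62e-09) and 7.68 (SE 0.19, adjusted p = 1e-08). The other fibrillar genes ranged from 1.61 for *Col11a2*, a type XI chain, to 7.03 for *Col11a1*.

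Of the FACIT genes *Col12a1*, and of the short chain genes *Col10a1*, had the highest fold change. *Col12a1*, whose product coats type I fibres, had 206249 and 205109 in the fibroblasts, 388 and 261 in the pre-iPS line, 441 and 396 in the control line, 1079 and 423 in clone1 and 1004 and 434 in clone2. It was 359-fold higher in MEF than in iPS cells (8.49, SE 0.38, limma adjusted p = 1.58e-07). *Col10a1*, known from hypertrophic cartilage, had 2172 and 2153 in the fibroblasts, 2.04 and 0.957 in the pre-iPS line, 0 and 2.09 in the control line, 0.878 and 2.06 in clone1 and 2.97 and 1.78 in clone2. Its 6 iPS libraries held 10 reads in all, a MEF to iPS ratio of 1340 (exact 95% interval 728 to 2794, counting error only). *Col10a1* and *Col19a1* entered the test through their MEF values, so their calls are not counted as support.

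Type VI filaments link fibres to cells, and their 3 main chains were all higher in MEF. *Col6a1* had 115415 and 111373 in the fibroblasts, 1938 and 1967 in the pre-iPS line, 1334 and 2097 in the control line, 4324 and 2738 in clone1 and 3620 and 2762 in clone2. *Col6a2* had 81620 and 78126 in the fibroblasts, 938 and 940 in the pre-iPS line, 691 and 1017 in the control line, 1785 and 1315 in clone1 and 1520 and 1220 in clone2. *Col6a3* had 54441 and 52716 in the fibroblasts, 2093 and 3185 in the pre-iPS line, 1988 and 4319 in the control line, 2953 and 3634 in clone1 and 2850 and 3328 in clone2. MEF lay above all other libraries for each chain, by log2 fold changes of 5.43 (SE 0.21), 6.05 (SE 0.16) and 4.11 (SE 0.27) against iPS cells, with limma adjusted p of 6.66e-08, 1.35e-08 and 1.22e-06.

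Basement membrane genes were closer between MEF and iPS cells. *Col4a1* had 63403 and 60055 in the fibroblasts, 3526 and 2911 in the pre-iPS line, 14894 and 6748 in the control line, 15103 and 7317 in clone1 and 7251 and 4794 in clone2. *Col4a2* had 51697 and 49554 in the fibroblasts, 2284 and 2287 in the pre-iPS line, 8338 and 4822 in the control line, 9342 and 5223 in clone1 and 4925 and 3490 in clone2. Both chains of the widespread type IV network were higher in MEF, by 2.85 (SE 0.34, limma adjusted p = 5.44e-05) and 3.15 (SE 0.25, adjusted p = 4.53e-06). *Col18a1* had 23893 and 23222 in the fibroblasts, 7185 and 4776 in the pre-iPS line, 13521 and 9292 in the control line, 15065 and 9570 in clone1 and 16283 and 11192 in clone2. Its difference of 0.95 (SE 0.24, adjusted p = 0.00522) did not reach the fold threshold, which it passed without the passage 5 library of the control line (1.04), clone1 (1.06) or clone2 (1.04). The median level of the 9 genes in iPS cells was 15.1% of the MEF level, with a range of 2.62% to 56.5%, against a median of 1.06% for the 11 fibrillar genes.

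The genes lower in MEF were *Col6a4*, *Col6a5*, *Col9a2*, *Col13a1*, *Col17a1* and *Col22a1*. *Col13a1* passed the filter through the iPS lines alone, so its call is not counted as support. *Col6a4*, an additional type VI chain, had 20.9 and 12.8 in the fibroblasts, 420 and 452 in the pre-iPS line, 315 and 330 in the control line, 575 and 412 in clone1 and 288 and 415 in clone2. It was 21.8-fold lower in MEF (−4.45, SE 0.23, limma adjusted p = 3.29e-07). *Col6a5*, its neighbour on chromosome 9, had 165 and 150 in the fibroblasts, 1085 and 1067 in the pre-iPS line, 854 and 576 in the control line, 466 and 215 in clone1 and 1518 and 847 in clone2. It was 3.99-fold lower in MEF (adjusted p = 0.000333).

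*Col13a1*, a transmembrane collagen of cell adhesion sites, had 0 and 0 in the fibroblasts, 0 and 1.92 in the pre-iPS line, 69.6 and 75.1 in the control line, 24 and 41.1 in clone1 and 24.8 and 79.7 in clone2. With no read in either MEF library, it was at least 15.6-fold lower there than in iPS cells, counting 3 reads per library as the limit, which covers counting error only. *Col22a1*, a FACIT collagen of tissue junctions, had 33.8 and 22.3 in the fibroblasts, 76.5 and 215 in the pre-iPS line, 203 and 238 in the control line, 117 and 121 in clone1 and 124 and 294 in clone2. It was 6.04-fold lower in MEF (−2.59, SE 0.43, limma adjusted p = 0.000466). *Col17a1*, the hemidesmosomal collagen of basal epithelial cells, had 32.2 and 37.9 in the fibroblasts, 143 and 84.5 in the pre-iPS line, 146 and 114 in the control line, 195 and 101 in clone1 and 108 and 169 in clone2, a log2 fold change of −1.92 (SE 0.32, adjusted p = 0.000532) in MEF.

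The level left in reprogrammed cells was set beside that of fibroblast markers, since irradiated MEF may have served as support. The 10 markers summed to 364512 and 365548 in MEF, 9890 to 14352 in iPS libraries and 9992 to 10566 in pre-iPS libraries, which is 3.3% and 2.82% of MEF. Single markers ranged from 0.12% of the MEF level in iPS cells for *Lum*, a small proteoglycan, to 26.4% for *Twist2*, a transcription factor, and none was at 0. None of the 10 was called between pre-iPS and iPS cells or between iPS lines. Fibrillar genes in iPS cells ranged from 0.509% to 32.9% of MEF and in pre-iPS cells from 0.308% to 46.3%. The part of fibroblast RNA in these values was not tested.

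**Figure D3:**
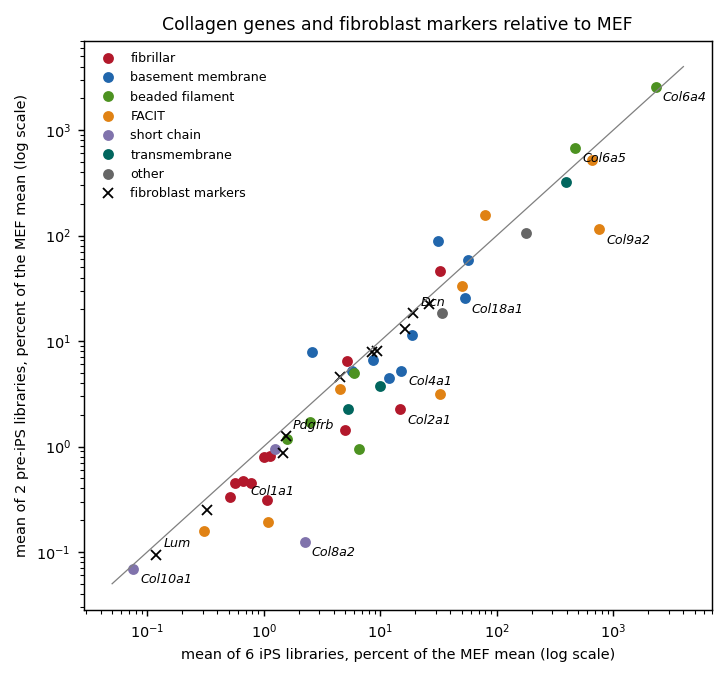
Mean value in the 6 iPS libraries (horizontal axis) and the 2 pre-iPS libraries (vertical axis) as a percent of the MEF mean, both on log scales, for collagen genes (points, by class) and 10 fibroblast markers (crosses); the line marks equality and both axes share the MEF mean. *Col13a1* and *Col19a1*, at 0 in MEF or pre-iPS cells, are not drawn, and *Col8a2* and *Col9a2* lie well below the line.

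Pre-iPS cells against iPS cells showed fewer differences, mostly losses in pre-iPS cells: 14 collagen genes were lower, 2 higher and 28 not called. Among all tested genes 16.3% were called, 11.6% lower and 4.71% higher. The median log2 fold change was −0.52, against 0 for all genes. Both pre-iPS libraries lay above all 6 iPS libraries for 1 collagen gene and below them for 18, where 41.8% of all genes tested did not overlap. With quantile normalization the calls were 4 higher and 10 lower. The lower genes were 3 fibrillar, 3 basement membrane, 1 beaded filament, 3 FACIT, 1 short chain and 3 transmembrane genes, and both higher genes were of the basement membrane class.

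**Figure D4:**
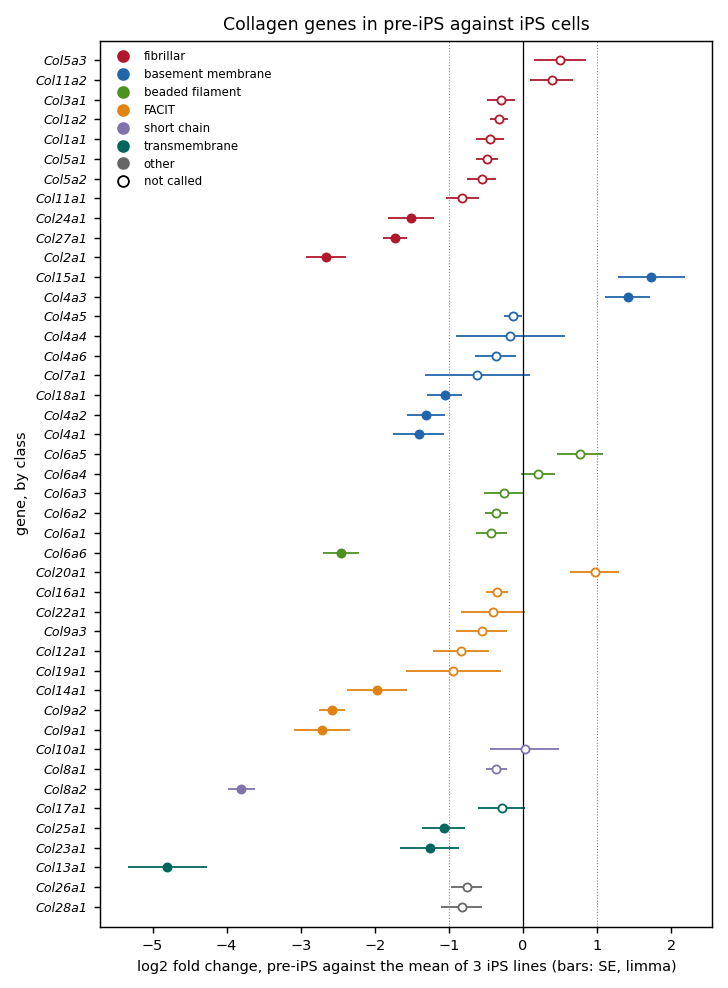
Log2 fold change of each collagen gene in pre-iPS cells against the mean of the 3 iPS lines (points; bars are the SE from limma), by class, with filled points for called genes and dotted lines at −1 and 1. The 14 filled points on the left run from *Col18a1* at −1.06 to *Col13a1* at −4.80, and *Col15a1* and *Col4a3* are filled on the right.

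Of the collagens best known from cartilage some were lower and others were not called. *Col2a1*, the main cartilage fibre chain, had 8978 and 8498 in the fibroblasts, 196 and 197 in the pre-iPS line, 1115 and 1894 in the control line, 866 and 1785 in clone1 and 945 and 1213 in clone2. It differed in pre-iPS cells by −2.66 on the log2 scale (SE 0.27, limma adjusted p = 0.00017). *Col9a1* and *Col9a2* encode chains of type IX, which coats type II fibres. *Col9a1* had 70.3 and 54 in the fibroblasts, 1.02 and 2.88 in the pre-iPS line, 20.3 and 38.6 in the control line, 7.09 and 8.21 in clone1 and 17.9 and 30.5 in clone2. *Col9a2* had 68 and 53 in the fibroblasts, 71.4 and 67.2 in the pre-iPS line, 531 and 428 in the control line, 251 and 221 in clone1 and 562 and 766 in clone2. Both pre-iPS libraries lay below every iPS library for these 3 genes, and the log2 fold changes were −2.71 (SE 0.38, adjusted p = 0.000903) for *Col9a1* and −2.58 (SE 0.18, adjusted p = 2.33e-05) for *Col9a2*. *Col9a1* rested on 4 reads in the pre-iPS libraries (iPS to pre-iPS ratio 10.3, exact 95% interval 4.03 to 37.8, counting error only). *Col9a3*, the third type IX chain, was not called (−0.56, SE 0.34, limma adjusted p = 0.22), nor were the type XI chains *Col11a1* (−0.82, adjusted p = 0.0169) and *Col11a2* (0.39, adjusted p = 0.312) or *Col10a1*, with 3 reads in pre-iPS cells and 10 in iPS cells.

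Of 6 chondrocyte markers 4 were lower in the same libraries. *Acan*, *Matn3*, *Hapln1* and *Comp*, all cartilage matrix genes, were lower in pre-iPS cells (log2 fold changes −5.81, −4.45, −2.15 and −1.85), while *Matn1* and the regulator *Sox9* were not called. The 6 markers summed to 894 and 976 in pre-iPS cells, against 1088 to 2073 in iPS cells, and none was at 0 in both pre-iPS libraries. *Sox9* alone had 856 and 940 of these sums in pre-iPS cells and 672 to 1406 in iPS cells. The part of the markers in the collagen result was not tested.

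*Col8a2*, a short chain collagen of corneal Descemet's membrane, had 2757 and 2826 in the fibroblasts, 4.08 and 2.88 in the pre-iPS line, 76.4 and 83.4 in the control line, 47.9 and 47.2 in clone1 and 59.5 and 60 in clone2. Its pre-iPS values were below those of every other library, with a log2 difference of −3.80 (SE 0.18, limma adjusted p = 3.56e-06) against iPS cells. It rested on 7 pre-iPS reads, a ratio of 18.0 (exact 95% interval 8.74 to 44.8, counting error only). *Col13a1* had 2 reads in the 2 pre-iPS libraries together, a ratio of iPS to pre-iPS cells of 52.9 (exact 95% interval 14.6 to 437, counting error only). Because *Col13a1* passed the filter through the iPS lines alone, its call is not counted as support. *Col6a6*, a further type VI chain, had 518 and 537 in the fibroblasts, 5.1 and 4.8 in the pre-iPS line, 30.9 and 40.7 in the control line, 18.6 and 16.4 in clone1 and 41.7 and 61.8 in clone2. It was lower in pre-iPS cells by −2.46 (SE 0.24, adjusted p = 0.000122), with 10 reads there.

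Among basement membrane genes the main type IV pair and *Col18a1* were lower in pre-iPS cells while *Col15a1* and *Col4a3* were higher. Log2 fold changes were −1.41 (SE 0.34, limma adjusted p = 0.011) for *Col4a1*, −1.31 (SE 0.25, adjusted p = 0.00415) for *Col4a2* and −1.06 (SE 0.24, adjusted p = 0.00816) for *Col18a1*, each with both pre-iPS libraries below all 6 iPS libraries. The call for *Col4a1* was lost without either pre-iPS library (−1.55, adjusted p = 0.0508 without passage 5, and −1.27, adjusted p = 0.0824 without passage 25). That for *Col18a1* was lost without pre-iPS passage 25 (−0.76, adjusted p = 0.0889) and fell just under the fold threshold without the passage 5 library of the control line (−0.97), clone1 (−0.95) or clone2 (−0.97).

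Primitive and parietal endoderm are known for making type IV collagen and laminin, and 4 of 8 of their markers were lower in the same libraries. These were *Lama1* (−4.71), *Foxa2* (−3.56, 5 reads in pre-iPS cells), *Sox7* (−2.78) and *Sox17*, with 2 reads in pre-iPS cells (iPS to pre-iPS ratio 87.8, exact 95% interval 24.3 to 725). The other 4 were not called, at −0.77 for *Gata4*, −0.65 for *Lamb1*, −0.08 for *Gata6* and −0.01 for *Dab2*. The list summed to 8196 and 9772 in pre-iPS cells and 12387 to 25986 in iPS cells, and its part in the *Col4a1*, *Col4a2* and *Col18a1* values was not tested.

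*Col15a1*, a proteoglycan-type collagen next to *Col18a1* in structure, had 2098 and 2097 in the fibroblasts, 225 and 106 in the pre-iPS line, 24.2 and 24 in the control line, 112 and 38 in clone1 and 89.3 and 42.1 in clone2. Pre-iPS passage 5 was highest outside MEF, and the passage 25 library, at 106, fell between the clone1 libraries. The log2 fold change was 1.73 (SE 0.45, limma adjusted p = 0.0165), and the call was lost without pre-iPS passage 5 (1.18, adjusted p = 0.171). *Col4a3*, a type IV chain of kidney glomerulus and lung, had 19.9 and 14.8 in the fibroblasts, 15.3 and 15.4 in the pre-iPS line, 3.87 and 5.22 in the control line, 7.09 and 9.24 in clone1 and 2.97 and 4.47 in clone2. The pre-iPS values of 15.3 and 15.4 lay within those of MEF, and their log2 fold change against iPS cells was 1.41 (SE 0.30, adjusted p = 0.00622), with 34 reads in the 6 iPS libraries together.

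The remaining lower genes were *Col14a1* (−1.97), *Col27a1* (−1.73), *Col24a1* (−1.51), *Col23a1* (−1.26) and *Col25a1* (−1.07). *Col27a1*, a cartilage-associated fibrillar collagen, had 57.1 and 58.6 in pre-iPS cells against 146 to 283 in iPS cells (SE 0.16, limma adjusted p = 8.65e-05). The other 4 rested on lower values, 8 reads in pre-iPS cells for *Col14a1*. With quantile normalization all 4 lost their calls, at −0.96 for *Col14a1*, −0.68 for *Col24a1*, −0.63 for *Col23a1* and −0.34 for *Col25a1* (limma adjusted p = 0.142, 0.144, 0.249 and 0.413). Each also lost its call without at least 1 pre-iPS library: without passage 25, adjusted p was 0.0521 for *Col14a1*, 0.0595 for *Col24a1*, 0.0804 for *Col23a1* and 0.0953 for *Col25a1*. Without passage 5 it was 0.204 for *Col23a1* and 0.0863 for *Col25a1*. *Col23a1* also lost its call without either control library (0.0514 and 0.0627), clone2 passage 25 (0.0573) or either MEF library (0.0604), and *Col25a1* fell under the fold threshold without control passage 25 (−0.91).

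The fibroblast collagens did not separate pre-iPS from iPS cells at these thresholds. *Col1a1* differed by −0.45 (95% interval −0.88 to −0.02, limma adjusted p = 0.0867), *Col1a2* by −0.32 (−0.59 to −0.04, adjusted p = 0.0654) and *Col3a1* by −0.30 (−0.73 to 0.13, adjusted p = 0.242). The intervals exclude a 2-fold difference in either direction for these genes. *Col5a1* and *Col5a2* had adjusted p of 0.0335 and 0.0465 with log2 fold changes of −0.49 and −0.56, under the fold threshold. The type VI chains differed by −0.43, −0.36 and −0.26 for *Col6a1*, *Col6a2* and *Col6a3*, with adjusted p of 0.13, 0.114 and 0.474.

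Set against MEF, pre-iPS cells had 34 collagen genes lower, 4 higher and 6 not called. Among all tested genes 43.2% were called, 20.9% lower and 22.4% higher. The median log2 fold change was −4.48, or −4.42 with *Col19a1* at its counting limit. This comparison shares the pre-iPS libraries with that against iPS cells and the MEF libraries with that of MEF. The 5 largest decreases by fitted fold change were those of *Col10a1*, *Col12a1*, *Col8a2*, *Col14a1* and *Col5a2*. *Col10a1* held 3 reads in pre-iPS cells, a MEF to pre-iPS ratio of 1456 (exact 95% interval 498 to 7061). The log2 fold change was −9.33 (SE 0.47, limma adjusted p = 4.87e-07) for *Col12a1*, −9.3 (SE 0.22, adjusted p = 1.48e-08) for *Col8a2* and −8.24 (SE 0.23, adjusted p = 2.9e-08) for *Col5a2*.

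*Col14a1*, a FACIT collagen of dense connective tissue, had 2116 and 2014 in the fibroblasts, 5.1 and 2.88 in the pre-iPS line, 25.1 and 13.6 in the control line, 5.32 and 12.3 in clone1 and 50.6 and 27.8 in clone2. It was lower in pre-iPS cells than in MEF by −8.73 (SE 0.49, limma adjusted p = 8.62e-07), on 8 reads (MEF to pre-iPS ratio 521, exact 95% interval 265 to 1207). *Col19a1*, at 45.9 and 39.1 in MEF, had no read in either pre-iPS library and was at least 14.3-fold lower. The 4 higher genes were *Col6a4* (4.65, SE 0.28), *Col6a5* (2.77, SE 0.38), *Col22a1* (2.18, SE 0.53) and *Col17a1* (1.62, SE 0.40), with adjusted p of 1.38e-06, 0.000205, 0.00509 and 0.00547. *Col9a2*, in contrast, had 71.4 and 67.2 in the pre-iPS line, close to the 68 and 53 of MEF (0.20, SE 0.22, adjusted p = 0.438).

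Between the Netrin-1 derived clones and the control line no collagen gene was called in either direction, where 2.11% of all tested genes were, 0.99% higher and 1.12% lower. In limma 10 of the 44 had an unadjusted p under 0.05 and 2 an adjusted p under 0.05, *Col6a1* and *Col6a2*. Of all 17075 genes tested 697 had an adjusted p under 0.05. For unadjusted p no share of all genes was counted in any comparison. *Col6a1* was higher in the clones by 0.98 (SE 0.22, 95% interval 0.48 to 1.48, adjusted p = 0.0473) and *Col6a2* by 0.78 (SE 0.17, 0.39 to 1.18, adjusted p = 0.046), both under the fold threshold. All 4 clone libraries lay above both control libraries for these genes, as they did for *Col5a2*, *Col15a1* and *Col4a6*, and below them for *Col8a2* and *Col24a1*. Groups did not overlap in these 7 of 44 genes, against 21.3% of all tested genes. Over the same lines the 10 fibroblast markers, which include no collagen, summed to 9890 to 14352 in the control line and 10719 to 13239 in the clones, with none called.

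Other analyses of the same libraries called up to 3 collagen genes. With recovered reads edgeR called *Col24a1* lower (−1.27, adjusted p = 0.0454), and DESeq2 called *Col24a1* lower (−1.28, adjusted p = 0.00255) and *Col5a3* (1.19, adjusted p = 0.00952) and *Col15a1* (1.54, adjusted p = 0.0213) higher. With passage as a replicate block *Col15a1* was called higher (1.36, limma adjusted p = 0.0474). Without clone1 passage 25 *Col5a3* (1.52) and *Col6a1* (1.14) were called, both at an adjusted p of 0.0302, and without control passage 25 *Col6a2* (1.06, adjusted p = 0.0481). The main matrix chains had wide intervals: 0.04 to 0.94 for *Col1a1*, −0.08 to 0.84 for *Col3a1*, −1.17 to 0.47 for *Col4a1*, −0.85 to 0.38 for *Col4a2* and −0.39 to 0.76 for *Col18a1*.

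Each clone was also set against the control line, which both comparisons share. Clone1 gave 0 of 44 calls (1.41% of all tested genes were called, 0.767% higher and 0.638% lower, and 14 collagen genes had an unadjusted p under 0.05 in limma) and clone2 0 of 44 (2.42%, 1.11% higher and 1.31% lower, and 7 genes). In clone1 *Col9a2* differed by −1.01 (SE 0.22, limma adjusted p = 0.059), and it was called by edgeR (−1.03, adjusted p = 0.048), by DESeq2 (−1.02, adjusted p = 0.00109) and without clone2 passage 5 (adjusted p = 0.0493). With passage as a block *Col9a2* (adjusted p = 0.0371), *Col6a5* (−1.15, adjusted p = 0.0367) and *Col9a1* (−1.75, adjusted p = 0.0418) were called in clone1. DESeq2 also called *Col6a1* (1.03) and *Col15a1* (1.64) in clone1. In clone2 it called *Col24a1* (−1.51) and *Col5a3* (1.31), edgeR called *Col24a1* (adjusted p = 0.0499), and *Col5a3* was called (1.36) without clone1 passage 5 (adjusted p = 0.0435) or passage 25 (0.044).

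Between the clones *Col9a2* and *Col6a6* were called, both higher in clone2, against 0.966% of all tested genes, 0.714% higher and 0.252% lower. *Col9a2* had 562 and 766 in clone2 and 251 and 221 in clone1, a log2 difference of 1.48 (SE 0.22, limma adjusted p = 0.0245), with the control line at 531 and 428. *Col6a6* had 41.7 and 61.8 in clone2 and 18.6 and 16.4 in clone1, a log2 fold change of 1.48 (SE 0.29, adjusted p = 0.0492). The clones did not overlap for 15 of the 44 genes, against 42.8% of all tested genes, 9 above in clone2 and 6 below.

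Neither call was firm. *Col9a2* lost its call without clone1 passage 5 (adjusted p = 0.0803) or 25 (0.162), clone2 passage 25 (0.155) or MEF passage 2 (0.0624) or 4 (0.0638). *Col6a6* lost its call without any library except clone2 passage 5, with adjusted p from 0.0631 to 0.266, and with passage as a replicate block (0.0607). With that block *Col6a5* was called (1.84, adjusted p = 0.0136), as it was by DESeq2 (1.79, adjusted p = 0.000178), which added *Col14a1* (2.17, adjusted p = 0.000341). Chondrocytes express type IX collagen. Their 6 markers summed to 1088 and 1648 in clone2 and 1245 and 1556 in clone1, with 0 of 6 called. *Sox9* was the largest part, at 672 and 799 in clone2 and 856 and 1207 in clone1. At passage 25 clone2 was above clone1 for *Acan* (424 against 197), *Matn3* (274 against 106), *Matn1* (88.7 against 17.5), *Comp* (42.1 against 21.6) and *Hapln1* (19.7 against 7.19). At passage 5 *Acan* was level, at 230 against 231. The part of these markers in the *Col9a2* values was not tested.

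With time in culture 1 collagen gene was called lower and none higher in a fit of the 8 libraries other than MEF that kept each line as a block. Among all tested genes 1.69% were called, 1.29% lower and 0.398% higher. *Col7a1*, the anchoring fibril collagen that ties epidermis to dermis, had 5754 and 5475 in the fibroblasts, 971 and 308 in the pre-iPS line, 847 and 538 in the control line, 2197 and 471 in clone1 and 1837 and 418 in clone2. It was lower at passage 25 in all 4 lines, by a log2 difference of −1.66 (SE 0.24, limma adjusted p = 0.00914). The call was lost without the pair of clone1 (−1.48, adjusted p = 0.0593) or of pre-iPS cells (−1.67, adjusted p = 0.0587). Without the control pair *Col12a1* (−1.04, adjusted p = 0.0202) and *Col15a1* (−1.23, adjusted p = 0.0207) were called as well.

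Keratinocytes are the cells best known for *Col7a1*. Their 4 markers summed to 714 and 192 in pre-iPS cells, 341 and 345 in the control line, 2128 and 549 in clone1 and 2113 and 433 in clone2. *Krt5*, a basal keratin, was the marker called lower at passage 25 (−1.60, SE 0.25, limma adjusted p = 0.0118), the other 3 were not called, and no marker was at 0 in these libraries. In the control line, where *Col7a1* had 847 and 538, the sum was level. There *Krt14* was higher at passage 25, with 187 and 234, while *Krt5* was lower, with 85.1 and 55.3. *Trp63* and *Krt15* were also lower at passage 25 in that line. The part of the 4 keratinocyte markers in the *Col7a1* values was not tested. Of the macrophage markers *Csf1r* (−1.48) and *Cd68* (−1.07) were lower at passage 25.

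Of the other collagens, 5 had an adjusted p under 0.05 with a smaller change. With *Col7a1* these were 6 of the 44, against 1869 of all 17075 genes tested at an adjusted p under 0.05. The basement membrane genes *Col18a1* (−0.58, SE 0.05, limma adjusted p = 0.00133), *Col4a1* (−0.77, SE 0.14, adjusted p = 0.0182) and *Col4a2* (−0.53, SE 0.13, adjusted p = 0.0453) were lower at passage 25, as was *Col12a1* (−0.82, SE 0.20, adjusted p = 0.0409). *Col6a3* was higher (0.56, SE 0.14, adjusted p = 0.045). *Col4a1* and *Col18a1* were lower at passage 25 in all 4 lines, *Col4a2* in the 3 iPS lines and not in pre-iPS cells, where it had 2284 and 2287. The passage change of *Col4a2* was −0.71 in iPS lines and 0 in pre-iPS cells, a difference of 0.71 (SE 0.17) whose p of 0.0052 gave an adjusted p of 1 in limma. All 4 lines moved the same way in 15 of the 44 genes, against 35.9% of all tested genes, 9 higher and 6 lower.

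Endoderm markers over the same passages summed to 25986 and 17006 in the control line, 21436 and 15436 in clone1, 12387 and 12450 in clone2 and 8196 and 9772 in pre-iPS cells, with 0 of 8 called. In limma 4 of the 8 markers had an unadjusted p under 0.05 and 2 an adjusted p under 0.05. The markers did not all move the same way. *Dab2* was higher at passage 25 in each line, such as 1727 and 2431 in the control line. *Sox7* was lower at passage 25 in each line, such as 255 and 99.1 in the control line. The median log2 fold change of the markers was −0.25. Their part in the type IV values was not tested.

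**Figure D5:**
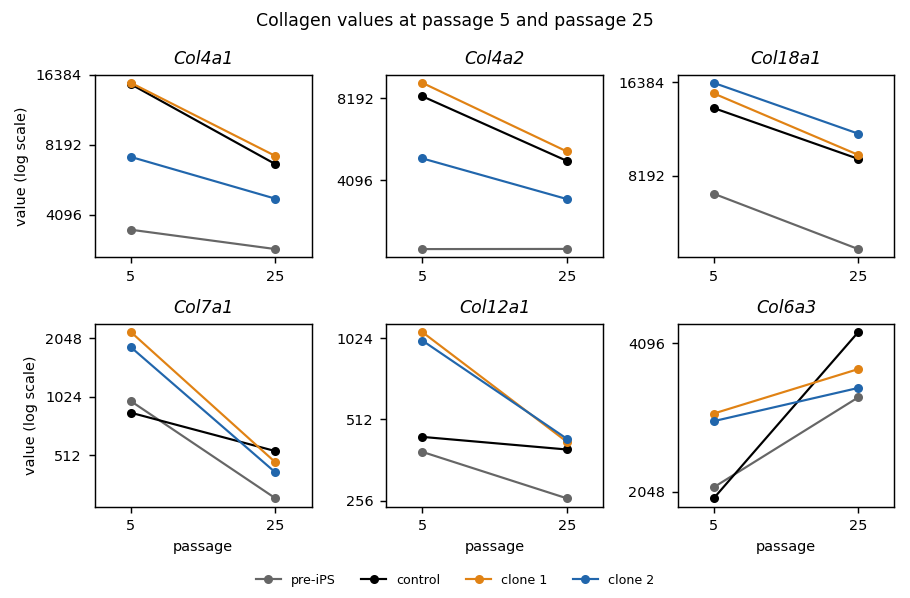
Values (log scale, separate range per panel) of 6 collagen genes at passage 5 and passage 25 in the pre-iPS, control, clone1 and clone2 lines, 1 library per point. *Col7a1*, *Col4a1*, *Col18a1* and *Col12a1* slope down in all 4 lines, *Col4a2* in the 3 iPS lines, and *Col6a3* slopes up in all 4.

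Partner chains of a trimer were compared within each library, per length, so that depth cancels. The size of such a ratio depends on the exon model used, and only its change between libraries is described. *Col1a1* to *Col1a2* was 2.57 and 2.47 in MEF and 1.47 to 1.99 in all other libraries. *Col5a1* to *Col5a2* was 0.784 and 0.759 in MEF and 1.41 to 2.75 elsewhere, with the highest value in the control line at passage 5. *Col6a1* to *Col6a2* was 2.69 and 2.71 in MEF and 3.67 to 4.61 elsewhere, and *Col4a1* to *Col4a2* was 1.09 and 1.07 against 1.13 to 1.58. MEF did not overlap with the other libraries in any of the 4 ratios. Pre-iPS values lay inside the iPS range for the type I (1.55 and 1.48), type V (2.05 and 1.73) and type VI ratios (3.93 and 3.98). The type IV ratio was 1.37 and 1.13 in pre-iPS cells, against 1.22 to 1.58 in iPS cells.

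*Col4a5* and *Col4a6* are X-linked, and *Xist* differed between the lines as given above. *Col4a5* ranged from 678 to 999 over the 8 pre-iPS and iPS libraries and *Col4a6* from 57 to 157. Neither was called between any pair of these groups, and the log2 fold changes of clone2 against clone1 were −0.07 (SE 0.15) and 0.23 (SE 0.34).

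Genes that make, cross-link or bind collagen were listed separately. Of 31 tested genes of collagen biosynthesis 26 were higher in MEF than in iPS cells and none lower, against 21.6% and 26.6% of all genes tested, led by *P4ha3* (7.14), a prolyl hydroxylase subunit, *Adamts2* (7.04), which trims procollagen, and *Lox* (6.35), the crosslinking oxidase. The median was 2.17, below that of the collagen genes. The chaperone *Serpinh1* was 3.57 higher. In pre-iPS cells against MEF 27 were lower, with *Adamts2* (−8.28), *P4ha3* (−7.97) and *Lox* (−7.47) leading, and none higher, against 20.9% and 22.4% of all genes.

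In the pre-iPS line 1 biosynthesis gene was higher and 6 were lower than in iPS cells, against 4.71% and 11.6% of all genes. *Pcolce*, an enhancer of procollagen trimming, had 22397 and 17347 in pre-iPS cells and 6264 to 15896 in iPS cells (1.04, SE 0.16, limma adjusted p = 0.00141). Among the lower genes were *Glt25d2*, a collagen galactosyltransferase with 1 read in pre-iPS cells (iPS to pre-iPS ratio 21.6, exact 95% interval 3.88 to 853), *Leprel1*, a prolyl hydroxylase (−1.34), and *Creb3l1*, a secretory pathway regulator (−1.32).

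Between the clones and the control line 3 of 31 biosynthesis genes were called, against 0 of 44 collagens and 2.11% of all genes, and the lists were not tested against each other. The Netrin-1 derived clones had *Lox* (2.03, SE 0.27, limma adjusted p = 0.00712) and the chaperone *Fkbp10* (1.25, SE 0.13, adjusted p = 0.00292) higher and the procollagen protease gene *Tll1* (−2.09, SE 0.18, adjusted p = 0.00127) lower than the control line. *Fkbp10* had 1524 and 1919 in the control line, 4639 and 4516 in clone1 and 4235 and 3108 in clone2, and *Tll1* had 424 and 637, 99.4 and 122, and 146 and 122. The *Lox* difference lay in clone1, with 10189 and 8228, against 936 and 637 in the control line and 1347 and 877 in clone2. Clone2 was lower than clone1 by −3.07 (SE 0.31, adjusted p = 0.00568). In clone1 *Pcolce* was also higher than in the control line (1.13, SE 0.20, adjusted p = 0.0288). With passage 0 of 31 were called, against 1.69% of all genes. In limma 19 had an unadjusted p under 0.05 and 12 an adjusted p under 0.05, with changes under the fold threshold. Of all 17075 genes tested 1869 had an adjusted p under 0.05.

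Of 9 collagen receptor genes, 6 were higher in MEF than in iPS cells, against 21.6% of all genes, led by the integrin chains *Itga11* (8.60) and *Itga1* (3.82) and the endocytic receptor *Mrc2* (3.42). *Itga2*, the integrin chain of platelets and epithelia, was lower (−2.32, against 26.6% of all genes lower), with 59.5 and 65.4 in MEF and 216 to 532 in iPS cells. In pre-iPS cells against MEF *Itga2* was higher (3.27) and 7 receptors lower, against 22.4% and 20.9% of all genes, led by *Itga11* (−8.69), *Itga1* (−4.16) and *Mrc2* (−3.70). No receptor was called between pre-iPS and iPS cells, between iPS lines or between passages, with 2 of 9 at an unadjusted p under 0.05 in limma for pre-iPS against iPS cells, 5 for the clones against the control line and 4 for passage.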

How the data were processed

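Poly(A) RNA from 10 samples was sequenced as single reads of 50 bases after a library kit that does not mark strand. Per the submitters' processing notes, tools were CASAVA 1.8.2, FastQC, TopHat2 2.0.8b, HTSeq 0.5.3p9 and edgeR, with build mm10; the annotation and strand setting are not given in the sources used here. The authors deposited a signal per gene, edgeR pseudo-counts of 18901 genes, in which reads were brought to a common library size. Without strand, overlapping and antisense genes cannot be told apart. Whole reads were recovered by inverting that step (100% of values within 0.1 of a whole number), and 1 read was worth 0.888 to 1.18. Each library held 38110410 to 52946856 reads, so counting error matters for genes under about 10 reads, and intervals cover that error only.

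The main test was limma 3.58.1 (R 4.3.3) on log2(value + 1), with a trend, over 17075 genes at 10 or more in 2 or more libraries. It fitted 5 line means over 10 libraries, with iPS taken as the mean of 3 lines. Fold changes are on that scale and understate those of low genes. Passage 25 was tested against passage 5 over 8 libraries with line as a block. Benjamini-Hochberg adjustment ran over all genes tested, and tests were two-sided. RPKM used the recovered reads and exon unions of GENCODE M21 on GRCm38. Alternatives were pseudocounts of 0.5 and 5, no filter, a mean of at least 50 (14043 genes), quantile normalization, only the lines compared, each library or pair left out, adjusted p alone, edgeR 4.0.16 and DESeq2 1.42.0 on recovered reads, and passage as a replicate block. Passage deviations of the 4 lines with shared passage numbers correlated at 0.235 to 0.504 over 6 pairs of lines, so the numbers were taken to pair the libraries. The fit was tested on simulated data.

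Every collagen gene could be named. Values in each library were given for the main chains of types I, III, IV, V, VI and XVIII, for genes called between iPS lines or passages, and for the 5 largest increases and decreases in comparisons with MEF or pre-iPS cells. Of the biosynthesis and receptor lists up to 3 genes per direction were named, and *Serpinh1* was added. The members and lists were chosen with earlier results of these data known. Lists of marker genes named in the text are textbook markers. Biosynthesis genes carry older symbols in the table (*Glt25d2*, *Leprel1*), and 1 of 10 receptor genes was not found in it.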

Additional observations from a re-analysis of the deposited data

Results flagged for a closer look

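*Col9a2*, a chain of the cartilage collagen type IX, and *Col6a6*, a chain of type VI, differed between the 2 Netrin-1 derived clones when each was set against the control line. Clone2 less clone1 was 1.48 on the log2 scale for *Col9a2* (SE 0.22, limma adjusted p = 0.0245) and 1.48 for *Col6a6* (SE 0.29, adjusted p = 0.0492). Against the control line clone1 differed by −1.01 and clone2 by 0.46 for *Col9a2*, and neither passed the threshold. Both libraries of clone2 lay above both of clone1 for each gene, and the libraries whose removal ended either call are given with the results.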

How the results depend on the processing

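Direction was compared for collagen genes called in the main fit, and none changed direction under any alternative. Of these single-gene results 59 alternatives lost the call. Collagen calls in MEF against iPS cells (40), pre-iPS against iPS cells (16) and pre-iPS cells against MEF (38) stayed within 1.5 times of these counts under all alternatives run, at 35 to 42, 12 to 22 and 35 to 38. For the clones against the control line (0 calls) adjusted p alone gave 2, edgeR 1, DESeq2 3, and leaving out a library 0 to 2. For clone2 against clone1 (2 calls) a pseudocount of 0.5, no filter and a mean of at least 50 gave 1 each, DESeq2 4, the fit of only the lines compared 0, and leaving out a library 0 to 2. For passage (1 call) adjusted p alone gave 6, edgeR 2, and leaving out the pair of a line 0 to 3. The cause was not tested, except that adjusted p alone admits smaller changes by construction.

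With passage as a replicate block the clones against the control line gave 1 call (*Col15a1*). Clone2 against clone1 gave 2, of which 1 was shared with the fit without the block, and pre-iPS against iPS cells gave 16, all 16 shared. Comparisons with MEF had no blocked fit of their own, because MEF passages carry other numbers, and for passage the main fit already pairs the libraries by line. Clone1 against the control line went from 0 to 3 calls with the block (*Col6a5*, *Col9a1*, *Col9a2*). Over all genes tested, calls that moved by over 1.5 times were as follows. For the clones against the control line 360 became 564 with the block, 134 with only the lines compared, 697 with adjusted p alone and 120 to 237 without a control library, clone2 passage 5 or a MEF library. Between the clones 165 became 327 with the block, 6 with only the lines compared, 435 with DESeq2, 106 at a mean of at least 50, 271 with adjusted p alone and 14 to 260 without a library of either clone or of MEF. With passage 289 became 1869 with adjusted p alone, 97 without the clone1 pair and 160 without the pre-iPS pair. For MEF against iPS cells 8237, for pre-iPS against iPS cells 2781 and for pre-iPS cells against MEF 7383 became 13546, 6758 and 12062 with adjusted p alone, and 2781 became 1758 at a mean of at least 50.

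With 2 libraries a line, a culture or clone effect and a condition effect cannot be told apart, and MEF differ from the other cells in medium and passage as well as in type. Pre-iPS cells and clone2 also differed from the control line and clone1 in *Xist* and Y-linked reads. In comparisons between these lines sex and line cannot be told apart. Collagens with 10 or fewer reads in a group (*Col6a6*, *Col8a2*, *Col9a1*, *Col10a1*, *Col13a1*, *Col14a1*, *Col19a1* and, in single iPS lines, *Col4a3*) are limited by depth. Whether feeder RNA is present was not tested.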
